A study of Mus musculus with 10 samples.

Results

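The first pharyngeal arch (PA1), the embryonic tissue that forms the jaws, was examined here in normal embryos only. The 5 wild-type libraries, of 10 libraries in the series, were taken by genotype (Grhl2+/+) and each was made from the PA1 of a single male embryo at embryonic day E10.5. The embryos came from intercrosses of mice heterozygous for a Grhl2-null allele on a background labelled C57BL/6 (C57BL/6J in the study's methods), so that both parents carried the allele and the embryos examined did not. No embryo was treated, and the excised tissue held the maxillary and the mandibular processes together, so a level is that of the whole arch and not of one process or one cell type. Because all embryos were male and of one strain and stage, the values describe that sex, strain and stage only. The libraries are called WT1-566, WT1-568, WT3-588, WT5-566 and WT8-568, and wherever 5 values are given they follow that order. The number after the hyphen is shared by WT1-566 and WT5-566 and by WT1-568 and WT8-568, and the number before it, 1, is shared by WT1-566 and WT1-568. The labels do not say what either number stands for.

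PA1 is a pair of swellings beneath the embryonic brain, each with a core of mesenchyme covered by surface ectoderm on the outside and pharyngeal endoderm on the inside. Most of the mesenchyme comes from cranial neural crest cells, which migrate from the neural tube and later make bone, cartilage and connective tissue of the face, while a smaller core of mesoderm makes jaw muscle and vessel walls. Neural crest cells of PA1 are known for having no Hox code, in contrast to those of the arches behind it, and a nested set of Dlx genes gives them upper or lower jaw identity.

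The libraries held between 22188454 and 28596428 reads in 22114 genes, with a median of 27462069. A gene was called detected when it had at least 10 reads in each of the 5 libraries, and at the floor when it had fewer than 3 reads in each. By these limits 13036 genes (58.9%) were detected, 6423 (29.0%) were at the floor and 2655 lay between, and 4843 genes had no read at all. A count of 3 reads corresponded to between 0.103 and 0.135 CPM (read counts divided by library size, after trimmed mean of M-values scaling), which is the level below which a transcript could not be told from none at this depth. The 4 Y chromosome genes examined were detected in every arch, with summed levels of 344, 356, 329, 339 and 335 CPM. No library repeated another: the chi-square between any 2 of them, per gene, was from 7.64 to 19.0 where sampling alone gives about 1.

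Arches were compared with one another on the CPM scale. Levels of different genes were compared only after division by transcript length, as TPM (reads per base of transcript, scaled to the same total in each library), computed from the merged exon length. Each mean is given ± SD over the 5 arches (n = 5).

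The most abundant transcript per unit length was Hbb-y, the embryonic beta-like globin of primitive red blood cells, at 12699.9 ± 2911 TPM. Hbb-bh1, a second embryonic beta-like globin, stood at 8246 ± 1637 TPM and Hba-x, the embryonic alpha-like chain, at 5495 ± 1265 TPM. Blood was therefore measured with the arch. Between them were Actb, cytoplasmic beta-actin, at 7904 ± 218 TPM, Hsp90ab1, a constitutive chaperone, at 6463 ± 237 TPM, and Hist1h1a, a linker histone of dividing cells, at 5707 ± 149 TPM. In Hbb-y the arches read 2678, 1548, 1764, 1959 and 1643 CPM, whereas in Actb they read 5054, 4826, 5043, 5118 and 5205 CPM. WT1-566 was the highest arch for Hbb-y, followed by WT5-566, and the Actb values lay within 1.08-fold of one another.

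The rest of the 20 most abundant transcripts per length were mostly of ribosomes, chromatin and mitochondria, and Mest, a paternally expressed gene of embryonic mesoderm, closed the list at 2871 ± 99.4 TPM. Rplp1, Rpl8 and Rpl4, proteins of the large ribosomal subunit, were at 4561, 3599 and 3229 TPM, and the elongation factors Eef1a1 and Eef2 at 4334 and 3381 TPM. Tubb5, a beta-tubulin, was at 4936 ± 59.02 TPM. The histone genes Hist1h1b, Hist1h2bb, Hist1h4h, Hist1h4k and Hist2h2bb ranged from 3595 to 5179 TPM. The Hist2h2bb value cannot be assigned to that gene with certainty, since 0% of its 50-base stretches were found in it alone. The share was also under 50% for Hist1h4k (28.5%), Rplp1 (40%) and mt-Co1 (48.9%), whose values carry the same limit. mt-Co1, a subunit of cytochrome oxidase, and mt-Nd1, a subunit of complex I, were at 5596 and 4912 TPM. Of 13 mitochondrially encoded genes 7 were detected, and 6 (mt-Atp6, mt-Atp8, mt-Co2, mt-Co3, mt-Nd3 and mt-Nd4l) were listed at 0 in every arch. Cells cannot make their oxidative enzymes without them, so these zeros are listed values and not measurements of absence.

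Ranked by reads alone, as CPM, longer transcripts came up. Actb led at 5049 ± 140.5 CPM, followed by Hsp90ab1 at 4622 ± 179, Tubb5 at 3915 ± 34.5 and Nedd4, a ubiquitin ligase, at 3473 ± 65.7 CPM. Mest, Peg3 and Grb10, which are genes expressed from a single parental allele, were among the 10 highest at 2701, 2414 and 2360.0 CPM. The other genes among the 20 highest were Eef2, Eef1a1, Flna (an actin crosslinker), mt-Co1, Hbb-y, Eif4g2 (a translation factor), Cbx5 (a heterochromatin protein), Ctnnb1 (beta-catenin), Sox11 (a progenitor transcription factor), Scd2 (a lipid desaturase), Gnb2l1 (a ribosomal scaffold protein), Top2a (the topoisomerase of dividing cells) and Rpl4, from 2679 CPM for Eef2 down to 1545 for Rpl4. The lists of 20 by CPM and by TPM had 9 genes in common.

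The arch transcriptome was broad. The 10 genes with most reads in an arch held 3.20 ± 0.0542% of its reads, the top 100 held 12.9 ± 0.130%, and 1288.8 ± 14.1 genes were needed to reach 50%. On the TPM scale the top 10 held 6.72 ± 0.551% and the top 100 held 21.3 ± 0.440%. The SD of the top 10 was larger on the TPM scale, where the globins lead the list. The median TPM of detected genes was 29.4, and 82 genes averaged 1000 TPM or more, 2309 averaged 100 or more and 9465 averaged 10 or more.

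**Figure D1:**
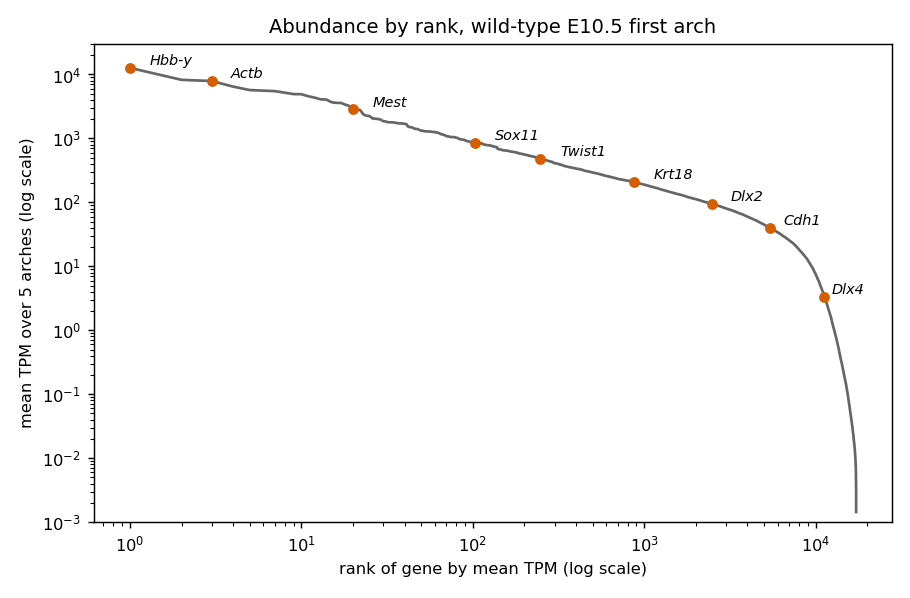
Mean TPM of each gene in the 5 wild-type arches (vertical axis, log scale) against its rank (horizontal axis, log scale), with selected genes labelled. The curve falls from Hbb-y at 12699.9 TPM past Krt18 at 208 and Dlx4 at 3.36, and 9465 genes lie at 10 TPM or above.

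The Dlx genes, homeobox factors of jaw identity, were all detected, 6 of 6, with a summed level of 247 ± 25.4 CPM. They lie in 3 adjacent pairs, Dlx1 with Dlx2 on chromosome 2, Dlx5 with Dlx6 on chromosome 6 and Dlx3 with Dlx4 on chromosome 11. Dlx1 and Dlx2 act in both processes, and Dlx5 and Dlx6 set the lower jaw. Dlx2 was the most abundant per length at 95.7 ± 11.1 TPM, and Dlx3, Dlx1, Dlx6 and Dlx5 followed at 68.01 ± 10.1, 63.9 ± 5.23, 56.5 ± 8.40 and 41.05 ± 7.55 TPM. Dlx4 was at 3.36 ± 0.832 TPM. Neighbours in that order overlapped in their ranges over the arches, except that every arch had Dlx5 above the highest value of Dlx4. With the length of the longest transcript in place of merged exons the order became Dlx2, Dlx1, Dlx3, Dlx5, Dlx6 and Dlx4, in which Dlx2 was again first and Dlx4 last.

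On the CPM scale Dlx2 read 63.99, 73.1, 69.9, 53.2 and 65.6 and Dlx5 read 27.4, 24.5, 19.004, 16.9 and 22.99 in the 5 arches. Dlx6 read 40.6, 31.6, 30.2, 28.1 and 29.4 CPM and Dlx1 81.5, 85.5, 86.9, 70.6 and 86.9 CPM. The sum over the family was 263, 267, 251, 203 and 248 CPM, lowest in WT5-566. Dlx1, Dlx4 and Dlx6 each overlap an antisense gene (Dlx1as, Dlx4os and Dlx6os2), whose reads cannot be told from theirs where strand was missed. In the genome (GRCm38) Dlx2 lies at chr2:71543408-71546754 and Dlx5 at chr6:6877805-6882085, both on the minus strand.

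The Hox genes, which mark position along the body behind PA1, were the counterpart of the Dlx genes. Of 39 Hox genes in the table none was detected, 32 were at the floor and 16 had no read in any arch. The whole family held 54, 74, 34, 30 and 45 reads in the 5 arches. Of these, Hoxb2, a hindbrain and second arch gene, had 18, 35, 11, 9 and 13 reads, highest in WT1-568. Hoxa2, the selector gene of the second arch, had 16, 2, 1, 1 and 2 reads.

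Other Hox genes above the floor had few reads in most arches. Hoxb3 had 3, 12, 2, 2 and 4 reads, Hoxb4 had 2, 7, 2, 1 and 2, Hoxc13 had 2, 5, 0, 0 and 7 and Hoxd8 had 1, 4, 1, 0 and 1. Hoxa2 was above the floor through WT1-566 alone, where its 16 reads were more than in the other 4 arches together. Hoxb2 and Hoxb3 lie opposite the non-coding gene Hoxb3os, so that any read counted on the wrong strand could not be told from a Hox read. Every one of the 39 Hox genes averaged under 1 TPM, and the family summed to 2.81 ± 1.03 TPM, against 329 ± 35.3 TPM for the 6 Dlx genes. The 3-amino-acid-loop partners of Hox proteins were present: all 7 Meis and Pbx genes were detected, and Meis2 read 270.3 ± 17.7 CPM.

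Sequences upstream of the start site are shown for 6 genes, because they span the levels met here, from the most abundant transcript to a gene at the floor. Each is the 100 bases before the RefSeq start (build GRCm38.p6), 5′ to 3′ along the gene's strand, with CG dinucleotides in capitals. Hbb-y is at chr7:103853208-103853307 (minus strand), Hba-x at chr11:32276500-32276599 (plus), Krt18, a keratin of simple epithelia, at chr15:102028116-102028215 (plus), Dlx2 at chr2:71546755-71546854 (minus), Hoxa2 at chr6:52164832-52164931 (minus) and Hoxd13, the distal limb Hox gene, at chr2:74668125-74668224 (plus).
Hbb-y: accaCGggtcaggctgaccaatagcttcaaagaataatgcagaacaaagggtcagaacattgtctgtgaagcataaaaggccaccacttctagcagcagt
Hba-x: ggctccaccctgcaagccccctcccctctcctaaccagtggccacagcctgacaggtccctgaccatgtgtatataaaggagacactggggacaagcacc
Krt18: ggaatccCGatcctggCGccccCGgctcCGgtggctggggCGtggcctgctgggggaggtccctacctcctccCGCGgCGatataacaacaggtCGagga
Dlx2: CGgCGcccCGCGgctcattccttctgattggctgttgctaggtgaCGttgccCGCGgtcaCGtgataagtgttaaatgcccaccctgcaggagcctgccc
Hoxa2: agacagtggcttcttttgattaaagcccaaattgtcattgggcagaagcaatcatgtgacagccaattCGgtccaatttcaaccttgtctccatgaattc
Hoxd13: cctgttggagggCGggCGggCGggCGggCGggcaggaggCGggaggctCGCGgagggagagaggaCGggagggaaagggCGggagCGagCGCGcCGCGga

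These windows did not rank as the transcripts did. Hbb-y held 1 CG pair in its 300 bases around the start (250 before and 50 after) and was the most abundant transcript, while Hoxd13 held 37 and averaged 0.0136 TPM. Dlx2 held 29, Krt18 17 and Hoxa2 9. Over all 16773 genes with a RefSeq window the median was 14 CG pairs. It was 21 for the 10335 detected genes and 2 for the 4546 genes at the floor, but the 19 Hox genes at the floor with a window had a median of 15. The 927 olfactory receptor genes with a window, at the floor almost without exception, had a median of 1. The letters TATAAA, searched on both strands, were in 13.0% of all windows, 6.74% of those of detected genes, 54.3% of the 35 keratin windows and 50.7% of the 71 histone windows. Hba-x holds them in the bases shown. A match is a string of letters and shows no factor bound there.

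**Figure D2:**
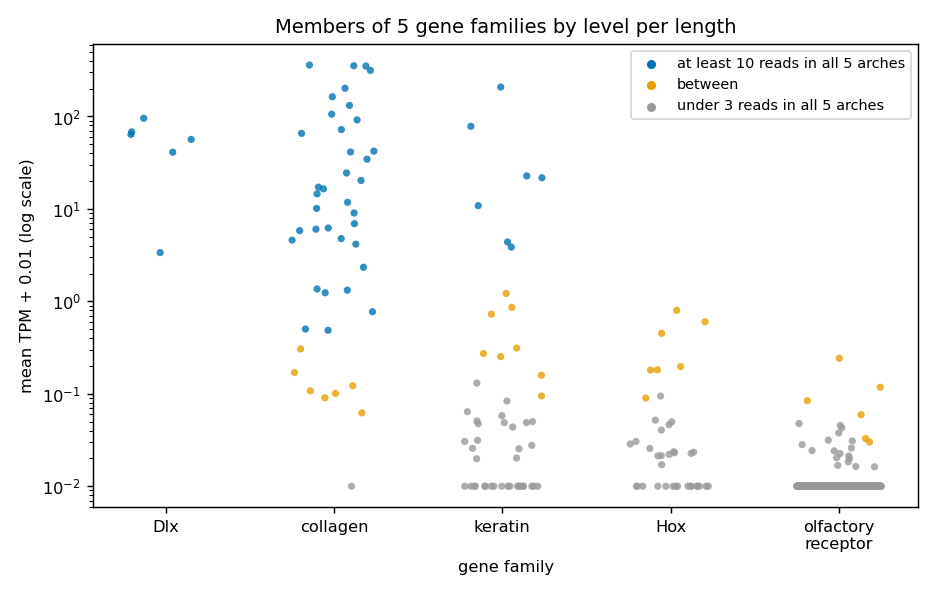
Mean TPM over the 5 wild-type arches (vertical axis, log scale, 0.01 added) of each member of the Dlx, collagen, keratin, Hox and olfactory receptor families (horizontal axis), coloured as detected (at least 10 reads in all 5 arches), at the floor (under 3 reads in all 5) or between; points are spread sideways only for legibility. All 6 Dlx genes and 36 of 44 collagens are detected, 7 of 51 keratins are, and no Hox gene or olfactory receptor is.

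Of 51 keratin genes, the intermediate filament proteins of epithelia, 7 were detected, 8 lay between and 36 were at the floor. Krt18 and its partner Krt8, the keratins of simple epithelia, led at 208 ± 44.2 and 78.3 ± 17.6 TPM, and Krt18 alone made 58.7% of the keratin TPM. Krt14, a basal keratin of stratified epithelium, was at 22.7 ± 4.14 TPM, and Krt19, a simple-epithelial keratin, at 21.7 ± 4.89 TPM. Krt7, Krt10 and Krt15 followed at 10.8, 4.38 and 3.85 TPM. Krt5, the usual basal partner of Krt14, was at 1.21 ± 0.436 TPM. It had 20, 15, 9, 17 and 20 reads, so it missed detection through WT3-588 alone. Ranges over the arches overlapped between Krt14 and Krt19 and between Krt10 and Krt15, and between no other neighbours in that order.

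Krt18 read 59.3, 84.2, 89.95, 56.6 and 66.5 CPM and Krt8 read 29.9, 41.4, 48.4, 30.2 and 32.7 CPM. WT3-588 was the highest arch for both. Krt14 read 10.4, 12.2, 8.79, 8.14 and 8.16 CPM. The 36 keratins at the floor include hair keratins such as Krt31, Krt35 and Krt71, and the 56 keratin-associated protein genes of hair were all at the floor.

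Of 44 collagen genes 36 were detected, 7 lay between and 1, Col10a1 of hypertrophic cartilage, had no read in any arch. The family read 4775 ± 252 CPM. Col4a1, a basement membrane chain, Col3a1, a fibrillar chain of loose mesenchyme, and Col2a1, the fibrillar chain of cartilage, were level at 360.2 ± 5.82, 354 ± 44.2 and 352 ± 16.99 TPM, and their ranges over the arches overlapped. Col18a1, the basement membrane collagen that carries endostatin, was next at 315 ± 21.03 TPM, and its range overlapped that of Col2a1. Col4a2, Col9a1, Col23a1, Col26a1, Col1a2 and Col5a1 then descended from 202 through 164, 132, 106 and 91.8 to 72.2 TPM, and among these only Col26a1 and Col1a2 overlapped. Of the 10 collagens 4 kept their place when the longest transcript gave the length, and Col2a1 was then first. By that length Col2a1, Col3a1, Col4a1 and Col18a1 were at 484, 475, 309 and 301 TPM. Col4a1 was thus level with Col2a1 and Col3a1 by merged exon length only.

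Col1a1, the main collagen of bone, was at 20.3 TPM, below Col1a2. Col2a1 read 795, 833, 753, 741 and 753 CPM and Col3a1 read 974, 795, 725, 902 and 748 CPM. Every one of the 11 laminin genes, which make the basement membrane network with collagen IV, was detected, and 22 of 26 integrin genes, the receptors for both, were detected.

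Other developmental families were detected in part. Both Prrx genes and all 3 Alx genes, mesenchymal homeobox factors, were detected, with sums of 742 ± 71.2 and 167 ± 33.3 CPM. Msx1 and Msx2, effectors of BMP signalling, were detected and Msx3, a neural tube gene, had no read. Of the Sox factors 15 of 19 were detected, led by Sox11 at 856 ± 31.5 and Sox4 at 389 ± 34.2 TPM, which are progenitor factors. Of the Fox factors 31 of 44 were detected, of the Tbx factors 8 of 13, of the Pax factors 3 of 9 and of the Nkx factors 3 of 14. Twist1, which maintains cranial mesenchyme, was at 482 ± 53.2 TPM, Id3, an inhibitor of basic helix-loop-helix factors, at 453 ± 32.4 TPM, and Barx1, a factor of the proximal jaw and molar field, at 347 ± 34.7 TPM.

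Among secreted signals, 14 of 19 Wnt genes, 8 of 22 Fgf genes and 7 of 11 Bmp genes were detected. Wnt6, made in surface ectoderm, and Wnt5a, made in distal mesenchyme, were the highest Wnt genes at 54.4 ± 5.05 and 42.1 ± 4.71 TPM. Fgf8, the ectodermal signal for jaw growth, was at 52.9 ± 7.64 TPM, Bmp7 at 44.2 ± 3.20 TPM and Bmp4, the distal ectodermal signal, at 40.99 ± 3.73 TPM. Fgf8 read 17.8, 19.7, 18.5, 13.3 and 15.8 CPM and Bmp4 read 24.98, 22.4, 20.3, 22.4 and 19.7 CPM. The ligand levels of Fgf8 and Bmp4 were below those of their mesenchymal target genes Barx1 and Msx1 in each arch, Msx1 being at 234 ± 36.5 TPM.

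The families of sensory receptors and other late specialised products were mostly at the floor, though 1 of 38 taste receptor genes was detected. Of 1103 olfactory receptor genes 1097 were at the floor and none was detected. Over 6 such families (olfactory, vomeronasal and taste receptors, keratin-associated proteins, beta-defensins and major urinary proteins) 1570 of 1588 genes (98.9%) were at the floor, and they made 24.4% of all genes there. A floor value is less certain where a gene resembles others: 1269 of 6070 genes at the floor had under 50% of their 50-base stretches unique to them, against 304 detected genes. At the other end 81 of 84 ribosomal protein genes and 68 of 80 histone genes were detected, with family sums of 14928 ± 551 and 14596 ± 537 CPM.

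The contribution of each tissue was followed with lists of its marker genes, each summed in CPM per arch. In bulk tissue, fewer cells of a type and less RNA per cell cannot be told apart, so a sum is an amount of RNA and not a number of cells. Counts of list genes highest in an arch are given without the share of all genes highest there. Such a count alone therefore does not set a list apart from the whole library.

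The ectomesenchyme list was wholly detected, 30 of 30 genes, and read 3519, 3438, 2914, 3042 and 3118 CPM. It was highest in WT1-566 and lowest in WT3-588, 1.21-fold apart. Of its 30 genes 11 were highest in WT1-566 and 13 in WT1-568. These arches were low in neuronal transcripts (given with the sensory neuron list). Without these arches, an alternative chosen after seeing the data, the ratio was 1.07. Leaving out the highest arches could only lower the ratio, and a tie of this list to the neuronal genes was not tested. Prrx1, a homeobox factor of limb and face mesenchyme, read 658 ± 66.1 CPM, Pdgfra, the growth factor receptor of cranial crest, 334 ± 44.1 CPM, and Meis2 came next. The labelled tissue thus carried its defining markers throughout.

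Genes of jaw patterning were detected without exception. The 15 mandibular genes read 655, 592, 486, 520.0 and 519.6 CPM, led by Alx4, a distal homeobox factor (121 ± 28.3 CPM), Barx1 (116 ± 12.1 CPM) and Hand2, which sets the ventral mandible (90.5 ± 12.8 CPM). The 13 maxillary and shared genes read 1307, 1314, 1223, 1255 and 1256 CPM, led by Meis2, Nr2f1 (172 ± 5.17 CPM) and Nr2f2 (126 ± 6.21 CPM), nuclear receptors of the upper jaw. The highest arch was 1.35-fold over the lowest for the mandibular sum and 1.07-fold for the maxillary and shared sum. Hand2 read 100.03, 107, 84.8, 76.1 and 84.2 CPM and Nr2f1 read 174, 169, 165, 177 and 177 CPM. Of the 15 mandibular genes 8 were highest in WT1-566 and 6 in WT1-568. Without these arches the ratio of the mandibular sum was 1.07. They were the highest arches for that sum, so leaving them out could only lower the ratio. The amounts of each process in the dissections were not tested.

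The epithelium list had 29 of 30 genes detected and read 763, 824, 811, 657 and 746 CPM, 1.25-fold between the highest arch, WT1-568, and the lowest, WT5-566. Its leading members by reads were Dsp, the desmosomal plaque protein (102 ± 10.005 CPM), Trp63, the master factor of stratified epithelium (72.7 ± 5.43 CPM), and Krt18 (71.3 ± 14.98 CPM). Epcam, an adhesion molecule of all early epithelia, was at 103 ± 12.7 TPM and Cldn6, the embryonic claudin, at 119 ± 8.002 TPM. Cdh1, E-cadherin, read 43.05, 50.4, 44.3, 34.1 and 47.5 CPM, and Grhl2, the epithelial transcription factor that the series was built to study, read 35.7, 33.2, 40.1, 31.8 and 35.8 CPM. Grhl2 was thus measured in each of the Grhl2+/+ arches. Cldn4, a barrier claudin, read 23.95, 24.9, 29.9, 21.9 and 26.3 CPM.

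Markers of the endodermal lining were few. The pharyngeal endoderm list had 6 of 11 genes detected and read 23.4, 32.1, 32.8, 23.1 and 26.4 CPM, led by Foxe1 (10.7 ± 2.31 CPM), Sox17 and Nkx2-3, and Nkx2-1, the thyroid and lung factor, was at the floor. Sox17 is also an endothelial gene and Foxe1 is also made in oral ectoderm, so neither is particular to the endoderm.

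The mesoderm of the arch was represented by 12 of 15 genes of early head muscle, with sums of 337, 332, 373, 403 and 369 CPM. Eya1 (136 ± 7.51 CPM) and Isl1 (53.5 ± 30.4 CPM) were among the leading members, and both are also made outside the mesoderm. Isl1, which sensory neurons also make, read 21.8, 24.9998, 64.2, 94.7 and 61.97 CPM and was lowest in WT1-566 and WT1-568. Myog, which drives terminal muscle differentiation, had 24, 11, 12, 34 and 9 reads and Myf6 had 3, 0, 4, 1 and 0, so neither reached detection. The cardiac muscle list had 6 of 14 genes detected and sums of 9.39, 11.3, 12.7, 15.6 and 13.5 CPM, led by Actc1, Ryr2 and Tnni1, and its members Smpx and Nppa were at the floor.

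The genes of vessels were detected in every arch. All 20 endothelial genes passed and read 579, 612, 659, 567 and 619.8 CPM, 1.16-fold from lowest to highest, with 14 of the 20 highest in WT3-588. Kdr, the VEGF receptor, read 113 ± 8.47 CPM, Cdh5, the endothelial cadherin, 86.5 ± 4.07 CPM and Pecam1 42.9 ± 1.19 CPM. The list of pericyte and smooth muscle genes had 7 of 10 detected and read 447, 479, 399.5, 433 and 457 CPM. Notch3 (193 ± 16.4 CPM) and Pdgfrb (179 ± 11.9 CPM), receptors also found in mesenchyme, led it, with Rgs5 next, while Myh11, the myosin of mature smooth muscle, had 6, 16, 8, 11 and 9 reads.

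Blood varied between arches mainly through one of them. The primitive erythroid list had 17 of 18 genes detected and read 6433, 3785, 4265, 4691 and 4079.9 CPM, and all 17 detected genes were highest in WT1-566. The ratio of the highest to the lowest arch was 1.70, and it was 1.24 when WT1-566 was left out, when the hypoxia and glycolysis list spanned 1.25-fold. Hba-x read 1717, 994, 1050.4, 1267 and 1122 CPM and Hbb-bh1 read 1628, 1003, 1183, 1165 and 1053 CPM. WT1-566 led both, as it led Hbb-y. Hbb-y alone made 41.3% of the sum.

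Macrophage genes were low, with 15 of 16 detected and sums of 57.3, 41.9, 39.1, 45.3 and 46.1 CPM, again highest in WT1-566. Csf1r, the macrophage growth factor receptor, read 9.62, 6.90, 7.28, 7.71 and 10.1 CPM, highest in WT8-568, and Cx3cr1 and Mrc1 came next at 7.24 and 5.81 CPM. The megakaryocyte and platelet list had 3 of 8 detected and sums of 12.2, 9.64, 14.3, 10.1 and 8.52 CPM, led by Itga2b, Pf4 and Ppbp.

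The sensory neuron list separated the arches more than any other list. The cranial sensory neuron list read 144, 117, 774, 1306 and 847 CPM, a ratio of 11.2 between WT5-566 and WT1-568. Tubb3, the neuronal beta-tubulin, read 12.04, 6.54, 201, 334 and 209 CPM, Nefl, the light neurofilament chain, 4.04, 2.52, 98.8, 203 and 111 CPM, and Neurod1, a factor of newly born sensory neurons, 0.809, 0.498, 33.97, 50.8 and 35.2 CPM. In each of these 3 genes WT1-566 and WT1-568 lay far below the other 3 arches and WT5-566 was highest. Of the 22 genes of the list with at least 10 reads in some arch, 21 had WT1-566 and WT1-568 as their 2 lowest arches and all 22 were highest in WT5-566. When WT1-566 and WT1-568 were left out, an alternative chosen after seeing the data, the ratio of the list sum was 1.69, below the 5.77 of the liver and yolk sac list. Leaving out the 2 lowest arches of the neuron list could only lower its ratio.

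Neural crest glia followed the same order. Their list had 9 of 10 genes detected and read 102, 88.8, 202, 309 and 227 CPM. Erbb3, the neuregulin receptor, read 35.1, 32.5, 63.1, 89.8 and 65.4 CPM, Ngfr, the low-affinity neurotrophin receptor, 30.9, 18.95, 26.2, 46.1 and 35.3 CPM and Sox10, the glial and crest factor, 3.95, 3.27, 31.5, 50.5 and 35.3 CPM. Erbb3 and Sox10 were lowest in WT1-566 and WT1-568, whereas Ngfr in WT3-588 lay between those arches. Of 10 genes with at least 10 reads in some arch 9 had WT1-566 and WT1-568 lowest and 9 were highest in WT5-566. The trigeminal ganglion, which lies at the upper edge of PA1, holds neurons and glia of this kind, and its part in these values was not tested.

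Lists of tissues that lie near PA1 or far from it were mostly undetected. The brain neuroepithelium list had 5 of 15 genes detected and sums of 34.7, 39.05, 55.2, 47.4 and 42.1 CPM. Sox2 (24.9 ± 3.87 CPM), which oral and pharyngeal epithelium also make, led it, with Emx2 and Otx2 next, and Nkx2-2, En1, Dbx1, Olig2 and Lhx5 were at the floor. The otic and optic placode list had 2 of 12 detected and sums of 12.2, 11.2, 15.7, 8.07 and 8.56 CPM, led by Gbx2, Six6 and Cryab, and Pax8, Oc90, Cryaa and Crygd were at the floor. The melanoblast list rested on Kit (56.2 ± 4.82 CPM), a receptor of several lineages, with Mitf and Pmel next at 3.72 and 0.511 CPM, and the pigment enzymes Tyr and Tyrp1 were at the floor.

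The limb and trunk list had 4 of 13 detected and sums of 119, 110.0, 89.2, 103 and 97.3 CPM, and Pitx1, a hindlimb gene that also patterns the mandible, made 83.8% of it at 86.8 ± 11.9 CPM. Pax3 and Tbx4 followed at 10.8 and 2.22 CPM, and Cdx2, Cdx4 and Hoxa13, markers of the posterior body, were at the floor. The liver and yolk sac list was low except in one arch: it read 14.02, 13.9, 72.9, 17.8 and 12.6 CPM, with WT3-588 far above the other 4. Afp, alpha-fetoprotein, read 1.71, 1.24, 24.04, 2.84 and 1.41 CPM, Apob, the lipoprotein backbone, 7.998, 8.89, 33.6, 9.999 and 6.59 CPM and Trf, transferrin, 2.20, 2.24, 2.41, 2.58 and 2.18 CPM, while Alb and Serpina1a were at the floor. Afp and Apob set WT3-588 apart and Trf did not.

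The skeleton had its early genes without its late ones. The cartilage and bone list had 9 of 16 detected and read 1055, 1137, 1019, 990.2 and 1034 CPM, led by Col2a1 (775 ± 38.5 CPM), Sox9, the chondrogenic master factor (82.01 ± 8.97 CPM), and Sox5 (67.5 ± 8.07 CPM). Bglap (osteocalcin), Runx3, Dmp1 of osteocytes, Matn1 of mature cartilage and Col10a1 were at the floor, and Acan, the aggregating proteoglycan of cartilage, had 8, 27, 24, 20 and 14 reads.

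Proliferation varied least of the lists. The 20 genes of S and M phase were all detected and read 7624, 7660.5, 7509, 7449.6 and 7622 CPM, 1.03-fold from lowest to highest, led by Top2a (1605 ± 62.5 CPM), Mki67 (1275 ± 79.6 CPM) and Mcm6 (525 ± 17.03 CPM). The stress and immediate early list read 555, 488, 515, 598 and 644 CPM, led by the chaperones Hsph1 (249.6 ± 23.5 CPM) and Dnajb1 (87.96 ± 10.96 CPM) and the immediate early factor Jun (76.9 ± 20.8 CPM). The hypoxia and glycolysis list had 13 of 14 detected and read 2015, 2319, 2658, 2126 and 2460.4 CPM, led by the enzymes Ldha, Aldoa and Eno1 at 798 ± 96.2, 604 ± 63.8 and 339.8 ± 49.1 CPM. The stress list and the hypoxia list each spanned 1.32-fold between arches.

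**Figure D3:**
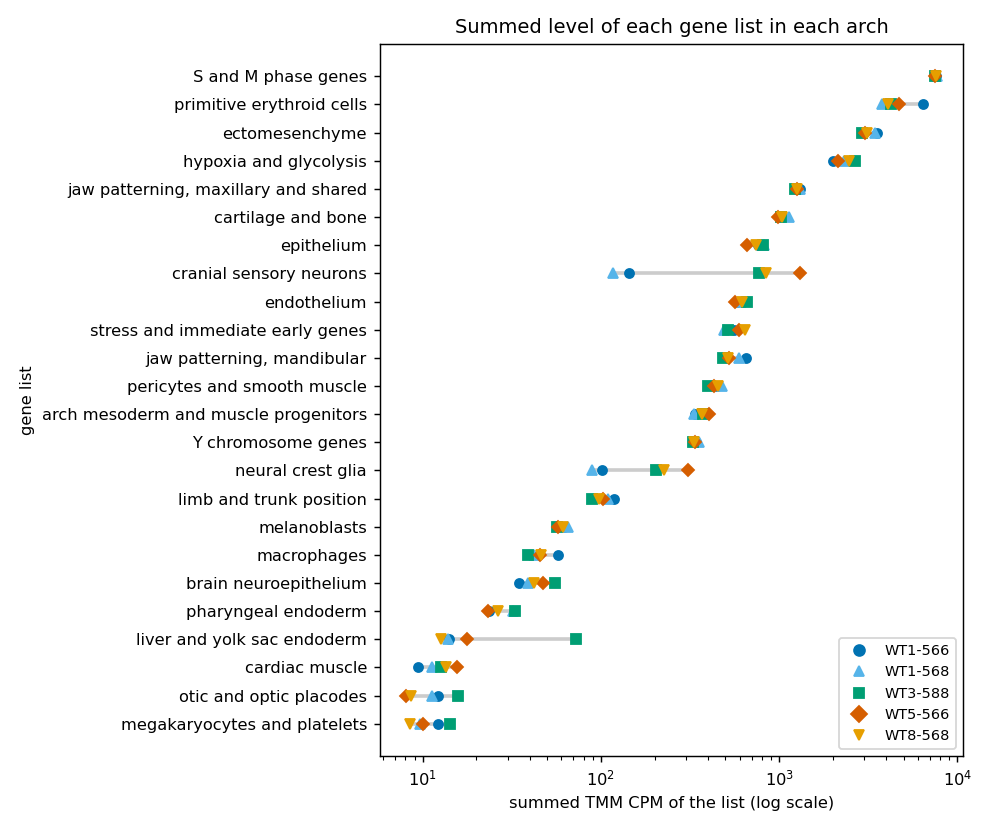
Summed CPM of each marker list in each wild-type arch (horizontal axis, log scale), one symbol and colour per arch, with a grey line from the lowest to the highest. The sensory neuron list spreads most, with WT1-566 and WT1-568 to the left as in the glia list, the liver and yolk sac list has WT3-588 alone to the right, and the S and M phase list lies within 1.03-fold.

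Between-arch variation of single genes was small for most of the transcriptome. Over the 10604 genes with a mean of at least 5 CPM the median coefficient of variation (CV) was 6.03%, and counting alone gave a median of 23.4% of the variance. The highest arch was less than 1.25-fold over the lowest in 7854 genes (74.1%), more than 2-fold over it in 279 (2.63%) and more than 4-fold over it in 117. The biological coefficient of variation that all genes shared (edgeR's common dispersion) was 14.3%, and it was 8.46% without WT1-566 and WT1-568, an alternative chosen after seeing the data.

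Of the 15 genes with most excess variation for their level, 9 were in the sensory neuron list and 6 (Akap6, Thsd7b, Sst, Myt1, Ttll7 and Map1b) were in no list. The 15 with the largest ratio of their own dispersion to the trend were Tubb3, Nefl, Nefm, Pou4f1, Dcx, Elavl4, Akap6, Neurod1, Elavl3, Thsd7b, Sst, Myt1, Ttll7, Stmn2 and Map1b. Pou4f1, the Brn3a factor of sensory neurons, read 1.03, 0.533, 42.3, 64.3 and 36.04 CPM, Dcx, a microtubule protein of young neurons, 3.64, 1.42, 38.5, 81.9 and 53.3 CPM, and Elavl3, a neuronal RNA-binding protein, 0.944, 0.249, 28.4, 47.7 and 32.9 CPM. Map1b, a microtubule protein of wider use, read 187, 201, 468, 773 and 593 CPM, a ratio of 4.13 between the highest and the lowest arch. Sst, the peptide somatostatin, read 0.359, 0.249, 20.8, 41.3 and 27.6 CPM. All 5 of these genes had their highest value in WT5-566 and their 2 lowest in WT1-566 and WT1-568.

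The remaining members of that set were ordered alike. Nefm, the medium neurofilament chain, read 2.70, 1.32, 50.5, 91.96 and 65.3 CPM, Elavl4 3.68, 3.66, 49.2, 89.7 and 53.5 CPM and Stmn2, a growth cone protein, 1.44, 0.996, 26.5, 44.7 and 31.9 CPM. Akap6, Thsd7b and Ttll7 read 77.7, 51.8 and 76.3 CPM in WT5-566 against 1.78, 0.782 and 5.05 CPM in WT1-568. Myt1, a zinc finger factor of neurons, had 8, 2, 573, 959 and 616 reads, and no ratio is given since its lowest arch was under 3 reads. Nefl and Nefm are neighbours on chromosome 14 and Neurod1 overlaps Cerkl, so these genes are not wholly separate measurements.

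The pattern covered more genes than the neuron list. Of the 117 genes more than 4-fold apart, 106 had WT1-566 and WT1-568 as the 2 lowest arches, 102 of them also had WT5-566 as the highest, 15 were in the neuron list, 4 in the glia list and 89 in no list. The other 11 were Lars2, Aldh1a3, Hspa1b, Wfikkn1, Hspa1a, Apob, Pax3, Tnc, Slc15a2, Sim2 and Afp. This limit of 4-fold was chosen after the values were seen. Aldh1a3, a retinoic acid synthesising enzyme of the nasal and ocular region, read 8.54, 34.03, 72.3, 15.998 and 23.2 CPM. Wfikkn1, a secreted inhibitor of growth and differentiation factors, read 3.42, 19.2, 31.9, 6.94 and 16.9 CPM. Both were highest in WT3-588 and lowest in WT1-566.

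The 10 genes with the smallest ratio of dispersion to the trend were Timp1, Cyb561d2, Rnf135, Gm15446, Kctd13, 1110001J03Rik, Cyb5d1, Nrbf2, Cklf and Bloc1s4. Timp1, an inhibitor of matrix metalloproteinases, read 5.66, 5.83, 5.90, 5.82 and 5.66 CPM, a CV of 1.88%. Nrbf2, an autophagy factor, read 6.02, 5.58, 5.90, 5.53 and 5.62 CPM, a CV of 3.79%. Both were below the median CV of 6.03%, but at few reads (126 to 171 per arch for Timp1). Counting alone would scatter counts of that size more than was seen. These 10 genes were the lowest picked from 10604, so their small spread does not show that they are steadier than others. With 5 arches an exact two-sided paired permutation test on 2 genes cannot give a p below 0.0625, so the order of genes is given by the number of arches and the overlap of ranges.

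**Figure D4:**
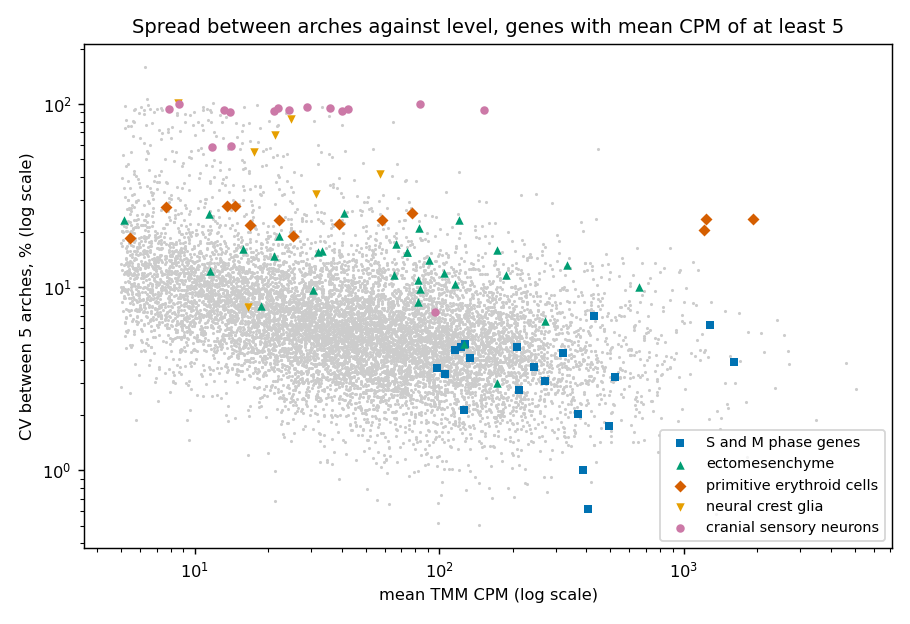
CV over the 5 wild-type arches (vertical axis, percent, log scale) against mean CPM (horizontal axis, log scale), one grey point per gene with a mean of at least 5 CPM and 5 gene lists in colour. The 10604 genes have a median of 6.03%, most sensory neuron genes lie far above genes of like level (Tubb3 92.5%, Nefl 100.02%), and Top2a of the S and M phase list is at 3.90%.

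Correlation between arches gave the same division, though not every measure did. Over the 10604 genes, Pearson's r of log2 CPM was 0.994 between WT1-566 and WT1-568 and 0.992 to 0.995 among WT3-588, WT5-566 and WT8-568, but 0.959 to 0.971 between an arch of the first set and one of the second. These are correlations across genes, which are not replicates, and the arches share their gene set and lengths. The 10604 genes include those that showed the division above, so the r values are not separate from them. Between arches of different sets 142 to 210 genes were over 2-fold apart, against 10 to 41 within a set. By the chi-square of counts per gene the division was not clean, since WT1-568 and WT8-568 (10.4) were closer than WT3-588 and WT5-566 (11.2). The first principal component, over the same genes without scaling, held 80.2% of the variance and the second 9.71%. Genes of large spread weigh most in it, so it is not a separate account of the division.

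The number after the hyphen did not mark this division, since WT1-566 shares its number with WT5-566 and WT1-568 with WT8-568. The number before the hyphen did: it is 1 in WT1-566 and WT1-568 and differs among the other arches (3, 5 and 8). Its part in the division was not tested. The arches that share the number after the hyphen had r values of 0.965 (WT1-566 and WT5-566) and 0.970 (WT1-568 and WT8-568). By chi-square per gene each of these pairs was closer than the pairs across the division that do not share that number: WT1-568 was at 10.4 from WT8-568 against 15.6 and 19.0 from WT3-588 and WT5-566, and WT1-566 was at 13.8 from WT5-566 against 14.7 and 14.3 from WT3-588 and WT8-568. In a test of that number (566, 568 or 588) across 14222 genes, limma-voom called 0 genes at a false discovery rate (FDR, Benjamini-Hochberg) of 0.01, 0% of those tested, and its lowest FDR was 0.370. At an unadjusted p of 0.05 it counted 1442 genes, 10.1% of those tested. edgeR's quasi-likelihood test also called 0 genes at that FDR, with 1461 (10.3%) at an unadjusted p of 0.05, and DESeq2's likelihood ratio test called 137, with 904 (6.36%). The shares under 0.05 for limma-voom and edgeR were above the share that this threshold alone would give. Labels 566 and 568 each hold 1 arch from either side of the division between WT1-566 and WT1-568 and the other arches. The fit has no term for that division, which therefore adds to the residual spread, so the 0 calls do not show that the number has no effect. One number, 588, was carried by a single arch, WT3-588, so that number and that embryo cannot be told apart.

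**Figure D5:**
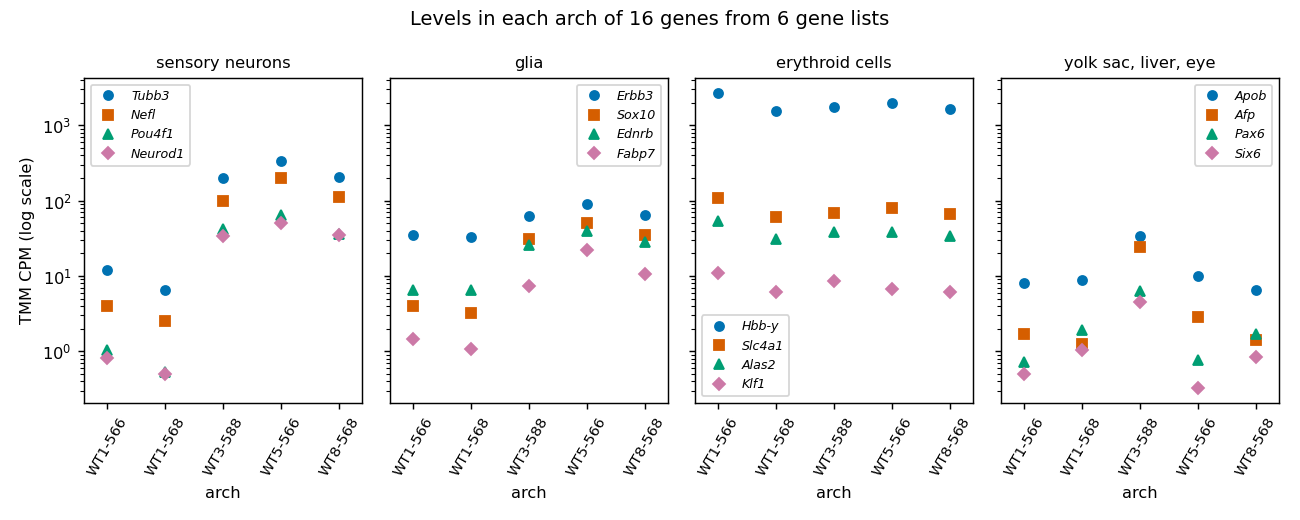
Level (vertical axis, CPM, log scale) in each wild-type arch (horizontal axis) of 16 genes from 6 gene lists, in 4 panels for sensory neurons, glia, erythroid cells, and yolk sac, liver and eye; each point is 1 arch. Tubb3 reads 12.04 and 6.54 CPM in WT1-566 and WT1-568 and at least 201 in the other 3 arches, Hbb-y is highest in WT1-566, and Afp reads 24.04 CPM in WT3-588 against 2.84 or less elsewhere.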

How the data were processed

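Total RNA (500 ng per PA1) was made into stranded, ribosomal RNA-depleted libraries and sequenced as single 50-base reads. Transcripts without a poly(A) tail, such as histone mRNAs, are therefore included. The deposited values used are the authors' raw read counts per protein-coding gene. The submitters' processing notes name STAR, featureCounts, edgeR 3.18.1, limma 3.32.7 and GRCm38. The 5 count columns of the other genotype were not used here, and neither were the columns of the authors' own comparison, which hold fold changes and p-values.

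CPM values were computed from the counts with TMM scaling in edgeR 4.0.16 (R 4.3.3), TPM from merged exon lengths of GENCODE mouse release 21 (21798 genes; the other 316 hold 0.106% of counts). Genes were matched to RefSeq promoter windows by symbol. The share of unique 50-base words per gene was counted over annotated transcripts. The label number was tested with limma-voom 3.58.1 over 14222 genes, with edgeR and DESeq2 1.42.0 as alternatives. The fits were also run on simulated data, whose outcome is not reported here. Depth was from 22188454 to 28596428 counts, and 3 reads were taken as the limit of detection. The embryo is the unit of replication (n = 5).

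The arches, gene lists and tests were chosen with earlier results of these data known. Named genes are the 20 highest by TPM and by CPM, the Dlx genes, the Hox genes above the floor, the 8 highest keratins and 10 highest collagens, the 3 leading members and all floor members of each of 24 lists, the epithelial genes the study names, and the 15 most and 10 least dispersed genes. Some genes that this rule names are not reported here. Other genes were chosen after their values were seen. Alternatives were the count minimum, median-of-ratios scaling, a CPM filter, the length of the longest transcript, and leaving out each arch. Replicate error is given as SD over arches. The p-values come from the test of the label number. They set differences between numbers against the spread of arches that share a number, for these embryos only.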

Additional observations from a re-analysis of the deposited data

Results flagged for a closer look

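Of 48 values checked over the 5 arches, 2 had one arch far from the other 4, and chance alone sets about 1 in 20 such values apart. The summed level of the liver and yolk sac endoderm list was 72.9 CPM in WT3-588, against 12.6 to 17.8 CPM in the other arches. Its members Afp, Apob, Apoa1, Rbp4 and Ttr were all highest in that arch. The summed level of the Dlx family was 203.5 CPM in WT5-566, which was the lowest arch for Dlx1, Dlx2, Dlx3, Dlx5 and Dlx6 but not for Dlx4. The part of any tissue carried over in dissection was not tested for either value.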

How the results depend on the processing

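No paired analysis was possible because all 5 arches are of one genotype, and the only grouping compared was the label number. With a count minimum of 3 in place of 10, 2 Hox genes and 12 keratins counted as detected, and with a minimum of 5, 1 Hox gene did. Between 0 and 1 Hox genes counted as detected when one arch at a time was dropped (1 without WT5-566). The top 100 genes held 21.3% on the TPM scale in place of 12.9% of reads. The common biological coefficient of variation was 10.9% when a gene needed 1 CPM in each arch, 12.6% to 16.5% when each arch was left out, and 8.46% without WT1-566 and WT1-568. The ratio of the highest to the lowest arch for the erythroid list was 1.24 to 1.70 when each arch was left out (1.24 without WT1-566) and 1.15 without WT1-566 and WT1-568. For the sensory neuron list it was 7.24 to 11.2 and 1.69. DESeq2 called 137 genes in the test of the label number. Why it differs from the other tools was not tested. No value changed sign, but rankings between lists changed: without WT1-566 the erythroid list fell below the hypoxia and glycolysis list (1.25), and without WT1-566 and WT1-568 the neuron list fell below the liver and yolk sac list (5.77). The latter was 1.41 without WT3-588. With lengths of the longest transcript Col2a1 passed Col4a1 and Dlx1 passed Dlx3. Over these alternatives 12073 to 14116 genes were detected and 4843 to 7049 were at the floor. Settings without WT1-566 and WT1-568 were chosen after seeing the data. Leaving out arches can lower a ratio of the highest to the lowest arch or keep it, but cannot raise it. The depth, with 3 reads at 0.103 to 0.135 CPM, limits every call of a silent gene, and similar gene copies limit it further.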

Other observations

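Single arches also stood apart in single genes, by a rule chosen after the values were seen: over 2-fold above each of the other 4 arches with at least 2 CPM, or over 2-fold below each of them where all 4 had at least 2 CPM. WT5-566 was above the others in 21 genes, WT3-588 in 14, WT8-568 in 2 and WT1-566 and WT1-568 in 1 each, and in 14 of the 21 and 8 of the 14 every other arch had at least 10 reads. WT1-568 was below the others in 9 genes, WT1-566 in 3, WT3-588 in 1 and WT5-566 and WT8-568 in 0. The 14 of WT3-588 included genes of forebrain and eye beside those of endoderm: Pax6, an eye and forebrain factor, had 16, 54, 185, 21 and 42 reads, Six6, an eye field factor, had 11, 29, 131, 9 and 21, and Zic1, a dorsal neural factor, had 0, 2, 129, 33 and 21. Cubn, the cubilin receptor of yolk sac endoderm, read 14.2 CPM in WT3-588 and at most 2.25 CPM elsewhere. Prex2, a Rac exchange factor, was lower in that arch alone, at 71.4 CPM against 154.6 to 181.3 CPM.

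Among the genes of WT5-566 was Lars2, the mitochondrial leucyl-tRNA synthetase, which read 42.1, 48.9, 49.6, 156.4 and 28.4 CPM and did not share the order of the neuronal genes. Alcam, a cell adhesion molecule, read 36.4 CPM in WT5-566 and at most 16.6 CPM elsewhere. Egr1, an immediate early gene, was 11.03 CPM in WT8-568 and at most 3.62 CPM in the others, and Fosb was 4.90 CPM in WT3-588 and at most 1.86 CPM elsewhere. The inducible heat shock genes Hspa1a and Hspa1b, which share sequence, were both lowest in WT1-568, at 3.56 and 5.76 CPM, and highest in WT5-566, at 22.3 and 33.2 CPM. Otx2, a forebrain and anterior head factor, was lowest in WT1-566, at 1.17 CPM against 4.84 CPM or more in the other arches. Shox2, a homeobox factor of the maxillary region, read 14.2, 4.23, 18.9, 35.4 and 17.8 CPM.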
